A study of Mus musculus with 10 samples.

Results

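Nuclear receptors and the coregulators that carry their signal to RNA polymerase II are described here through the m6A peaks of their transcripts. The members are the genes whose name in either deposited peak list is that of a numbered nuclear receptor (NR families), of a retinoic acid, retinoid X, thyroid hormone, oestrogen, oestrogen-related, PPAR, ROR or vitamin D receptor, or begins with Ncoa, Nrip or Med and a digit. By this name rule, 46 of the 8516 listed genes were taken. They are 22 receptors, 7 NCOA genes, 2 NRIP genes and 15 subunits of Mediator, so the group is wider than receptors and NCOA coactivators alone. The rule does not take receptors with other names, such as Pgr.

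Mouse cortex and hippocampus were taken on postnatal day 5, either wild type (WT, 3 m6A-IP and 3 input libraries) or with Mettl14 knocked out by a Nestin-driven Cre recombinase (KO, 2 m6A-IP and 2 input libraries). METTL14 is a core subunit of the complex that writes m6A on mRNA. Nestin-Cre acts in neural progenitors and their progeny, so microglia, vessels and blood keep the gene. A growth medium is also named in the labels, and tissue and cultured cells cannot be told apart from them. Each genotype is represented by 1 consensus peak list (15009 WT peaks, 3673 KO peaks), so no value has a replicate error and no test between genotypes was possible. Each peak carries a p-value or q-value, called p-value here, that ranks peaks within its list only. Wilson 95% intervals cover no more than counting error, and library depth is unknown here. A peak also needs its transcript to be expressed, and less RNA, fewer expressing cells and less methylation cannot be told apart from a peak list. Mettl14 had 1 WT peak and 0 KO peaks. Of 16 forebrain neuron markers, 14 had a WT peak (Snap25 and Gad1 had a peak in neither list), against 5 of 7 microglial, 6 of 7 vessel and 0 of 5 blood markers. In the KO list the counts were 12, 2, 3 and 0, and the part of cells outside the Nestin lineage in the peaks below was not tested.

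Nuclear receptors are transcription factors that are switched by small lipophilic ligands such as thyroid hormone, retinoic acid and steroids, or that act without a known ligand. Without agonist many bind corepressors, and with agonist they recruit p160 coactivators (NCOA1 to NCOA3), acetyltransferases and Mediator, the complex that bridges activators and RNA polymerase II. In the developing forebrain they pattern cortical areas (COUP-TF receptors), maintain neural stem cells (TLX) and time maturation (thyroid hormone receptors).

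Sequence is shown for the 5 WT peaks that come within 50 bases of a RefSeq transcript start. These are the peaks whose letters lie in the RefSeq promoter windows of GRCm38.p6 (41 of the 46 genes have one). A window runs to 50 bases after the transcript start, and each line gives the part of its last 30 bases that lies in the peak, 5′ to 3′ on the gene's strand. Capitals mark GAC or AAC, the central letters of the m6A consensus, searched on the transcribed strand alone.
Nr2f1: aagaaAACagcaggAACcacAACaaAACgc
Med19: ggtAACcaggagcgcagagtgctatggaga
Rxrg: ggcagcagtagcAACagcag
Med11: aaaGACggcctgtggggcttt
Ncoa5: gcaggtgggcagaggccgaggcggcagcgg
They lie at chr13:78198824-78198853 (minus strand), chr2:84678422-84678451 (plus), chr1:167598392-167598411 (plus), chr11:70451947-70451967 (plus) and chr2:165034730-165034759 (minus). Nr2f1 held 4 matches in 30 bases, Med19, Rxrg and Med11 held 1 each, and Ncoa5 held 0. Among the same 30 bases of all 32851 RefSeq windows, 49.5% held GAC or AAC, and 11.7% held GGAC, which none of the 5 stretches held. The Rxrg and Med11 stretches are shorter than these windows, with 20 and 21 bases. None of these 5 peaks was overlapped by a KO peak.

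Receptor and coregulator transcripts had m6A peaks in the WT list, unevenly by class. A WT peak was listed for 41 of the 85 protein-coding genes that match the name rule in RefSeq (48.2%, interval 37.9 to 58.7), against 34.2% of all RefSeq protein-coding genes. By class these were 21 of 45 receptor genes, 7 of 7 NCOA, 2 of 3 NRIP and 11 of 30 Mediator genes. The 41 genes held 93 peaks over 20030 exonic bases. Nrip1 led with 7, followed by Nr2f1, Thra and Ncoa1 with 5 each and Nr3c1, Nr4a3 and Ncoa6 with 4 each. Of the 41 genes, 17.1% held 4 or more WT peaks, against 11.4% of all genes with a WT peak, and 39% held 1, against 50.4%. Their width in exonic bases had a median of 180 (quartiles 121 and 269), against 208 (121 and 328) for all WT peaks, and 12.9% of them lay on more than 1 exonic block, against 23.5%.

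Few of these peaks were found in the KO list. A KO peak covered at least 1 exonic base of 8 of the 93 WT peaks (8.6%, interval 4.42 to 16.1), against 12.9% of all WT peaks. By gene, 8 of 41 had such an overlapped peak (19.5%, interval 10.2 to 34), against 20.6% of all genes with a WT peak. These shares lie near the background at this setting. With only as many WT peaks as KO peaks, strongest first, 1 of 19 was overlapped (5.26%), against 28.6% of all WT peaks so chosen, a difference that was not tested. The KO list held 16 peaks in 15 of the genes, over 2403 exonic bases. Of these, 8 lay over a WT peak (50%, interval 28 to 72), against 57.1% of all KO peaks. The 46 genes thus fell into 31 listed in WT alone, 10 in both lists and 5 in KO alone (10.9%, against 9.38% of all listed genes). Of the 46, 41 had a WT peak and 15 a KO peak, beside 7717 and 2879 of all 8516 listed genes. Their peaks are counted by role in the bar chart of peaks per gene.

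**Figure D1:**
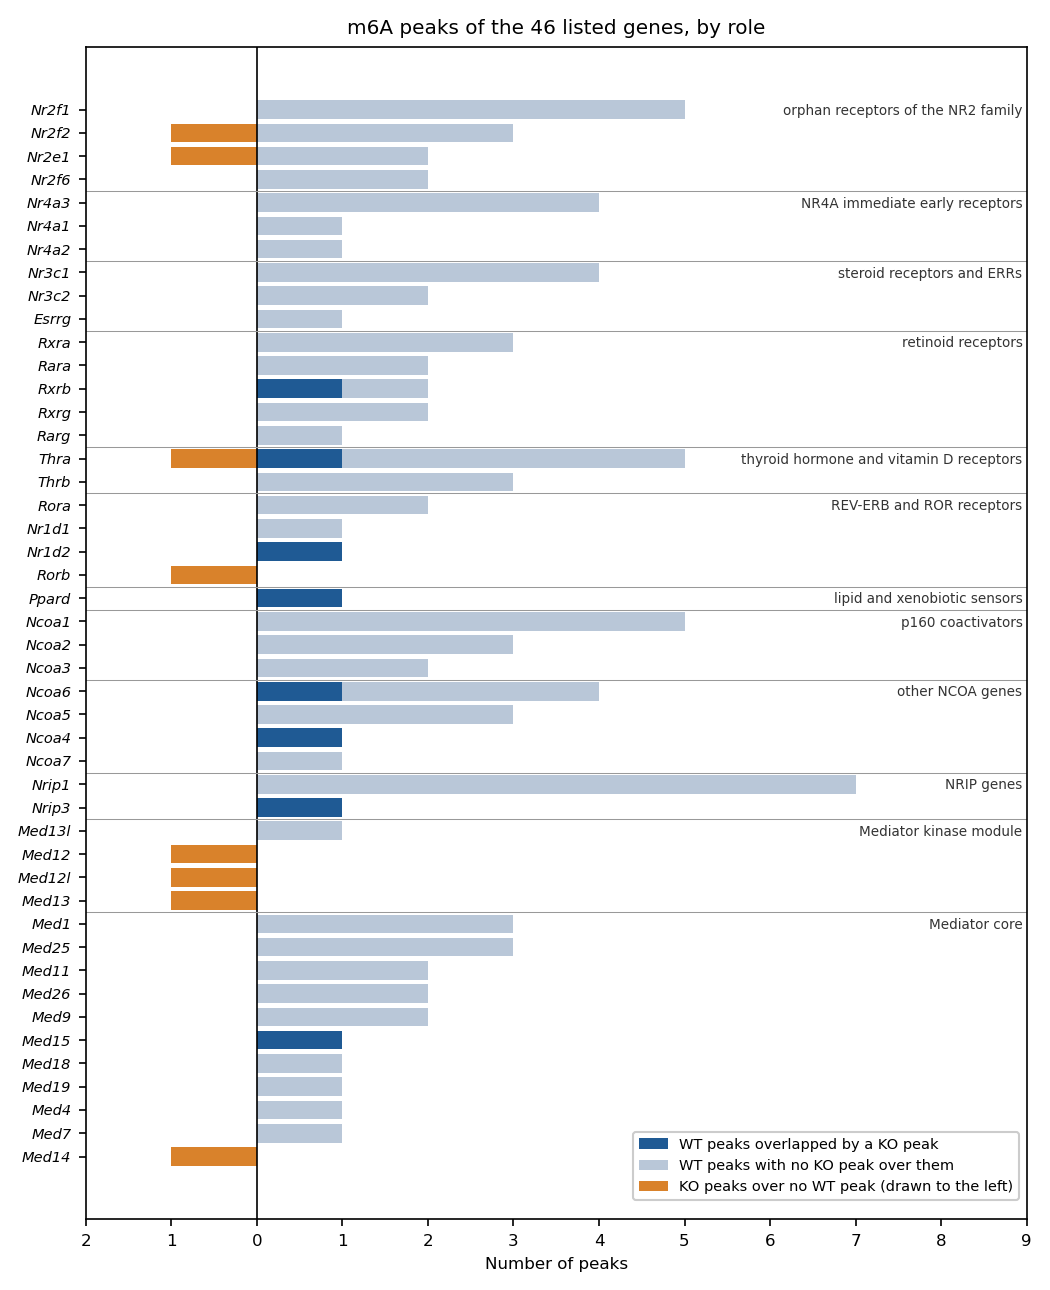
Number of m6A peaks (horizontal axis) of each of the 46 genes, grouped by role. Dark blue are WT peaks overlapped by a KO peak (8 in all), pale blue are other WT peaks (85), and orange bars drawn to the left are KO peaks over no WT peak (8). The longest bar is that of Nrip1, with 7 WT peaks and 0 KO peaks.

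Thyroid hormone receptors separated into a gene with KO peaks and a gene without. Thra encodes the main thyroid hormone receptor of the brain and had 5 WT peaks over 601 exonic bases and 2 KO peaks over 330. Its strongest WT peak ran on chromosome 11 from 98753514 to 98756132 on the plus strand, in blocks of 125 and 25 bases, with a p-value listed as 0, as for 764 WT peaks in all. The KO list held a peak with the same start and the same first block, whose second block reached 30 bases further, to 98756162 (p-value 3.2e-73). This was the only 1 of the 16 WT peaks in the strongest 20% of the WT list that a KO peak overlapped.

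A second Thra peak of the KO list, from 98760969 to 98761815 in blocks of 55 and 95 bases, lay 2688 bases or more from any WT peak of the gene and had a p-value of 2.5e-75. Both Thra peaks ranked within the strongest 10.3% of the KO list. The 4 other WT peaks, of 150, 91, 60 and 150 bases, were not overlapped. Of these, the last (98768470 to 98768619) lay 387 bases from the gene end. Thrb, the second thyroid hormone receptor gene, had WT peaks of 211, 181 and 91 bases on chromosome 14 (between 18033539 and 18036562), with p-values of 5e-13, 2.5e-13 and 1.7e-07, and 0 KO peaks. All 3 ranked in the weakest 20% of the WT list. The vitamin D receptor gene Vdr had no peak in either list.

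REV-ERB and ROR receptors, which repress and activate clock genes through shared response elements, held few peaks. The 3' end of Thra overlaps that of Nr1d1, which encodes REV-ERB alpha on the opposite strand. The last Thra peak lies within the span of Nr1d1, and the single Nr1d1 peak (98767932 to 98768021, 90 bases, p-value 5e-08, minus strand) lies within that of Thra. The library kit marks strand per the labels, but the sources used here do not say whether peak calling used it, so the gene of these 2 peaks is uncertain. Nr1d2, which encodes REV-ERB beta, had 1 WT peak of 360 bases on chromosome 14 from 18215003 to 18215362, and the KO list held 61 bases inside it, from 18215123 to 18215183, with a p-value of 4.8e-07. That KO peak covers 16.9% of the WT peak. Rora had WT peaks of 121 and 61 bases and 0 KO peaks. Rorb, a factor of cortical layer 4 neurons, had 0 WT peaks and 1 KO peak of 120 bases on chromosome 19 from 18934827 to 18934946 (p-value 1.5e-08). The KO peaks of Rorb and Nr1d2 are among the weakest of that list (ranks at 88.8% and 96.9% of it).

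Retinoid receptors had 10 WT peaks in 5 of 6 genes, and 1 KO peak. RXR receptors are the shared heterodimer partners of retinoic acid, thyroid hormone and lipid receptors. Rxrb had 2 WT peaks on chromosome 17, and the one from 34034141 to 34036359, in 3 blocks (61, 173 and 35 bases), was overlapped by a KO peak from 34034112 to 34035712 in 2 blocks (90 and 59 bases, p-value 4e-11). They share 120 bases, 44.6% of the WT peak. The stronger Rxrb peak, from 34037481 to 34037748 (p-value 1e-146) and 655 bases from the gene end, was not overlapped. Rxra had WT peaks of 210, 180 and 569 bases on chromosome 2, all within 2628 bases of the gene end, and Rxrg had 91 and 181 bases on chromosome 1, 30 and 179 bases after the gene start. Rara had 180 and 629 bases and Rarg 121, and Rarb had no peak. None of these 8 peaks of Rxra, Rxrg, Rara and Rarg was overlapped, beside 12.9% of all WT peaks.

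Orphan receptors of the NR2 family held 12 WT peaks in 4 genes, none of them overlapped, beside 12.9% of all WT peaks. Several were among the strongest of the group, of which those of Ncoa1, Ncoa2 and Nrip1 were not overlapped either. Nr2f1 and Nr2f2 encode COUP-TFI and COUP-TFII, which pattern cortical areas and interneuron origins. Nr2f1 had 5 WT peaks over 1341 exonic bases on chromosome 13, led by one of 506 bases from 78189331 to 78189836, with a p-value listed as 0 and 360 bases from the gene end, and 0 KO peaks. Its first peak covers the gene start, as shown by the sequence above, and both 5′ peaks lie within the span of the long noncoding RNA gene A830082K12Rik on the opposite strand. Nr2f2 had WT peaks of 180, 508 and 180 bases on chromosome 7, with p-values of 1e-269, 1e-134 and 1e-158, all in the strongest 20% of the WT list. Its only KO peak, 61 bases from 70366567 to 70366627 (p-value 5.2e-07), lay 119 bases after the gene start and 6006 bases from the nearest WT peak, within the span of the long noncoding RNA gene B130024G19Rik on the opposite strand. It is among the weakest of the KO list (rank at 97.1% of it).

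Nr2e1, which encodes the neural stem cell receptor TLX, had 2 WT peaks on chromosome 10, of 179 bases (42562351 to 42562529, p-value 4e-17) and 90 bases (42563272 to 42563361, p-value 1.3e-36). The KO list held 1 wider peak of 328 bases between them, from 42562648 to 42562975, with a p-value of 4e-50, in the strongest 14.6% of that list. It shares no base with either, and the smaller gap is 118 bases. Nr2e1 and Med15 were the genes with a peak in both lists whose summed exonic peak length was larger in the KO list, 328 against 269 bases and 181 against 151. Nr2f6 had WT peaks of 210 and 151 bases and 0 KO peaks. The plot of peak positions shows such courses side by side: a KO peak at the same place, a narrower one inside, and one elsewhere in the gene. In Med15 the KO peak is wider and holds the WT peak, and in Rxrb and Ncoa6 the KO and WT peaks overlap in part.

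**Figure D2:**
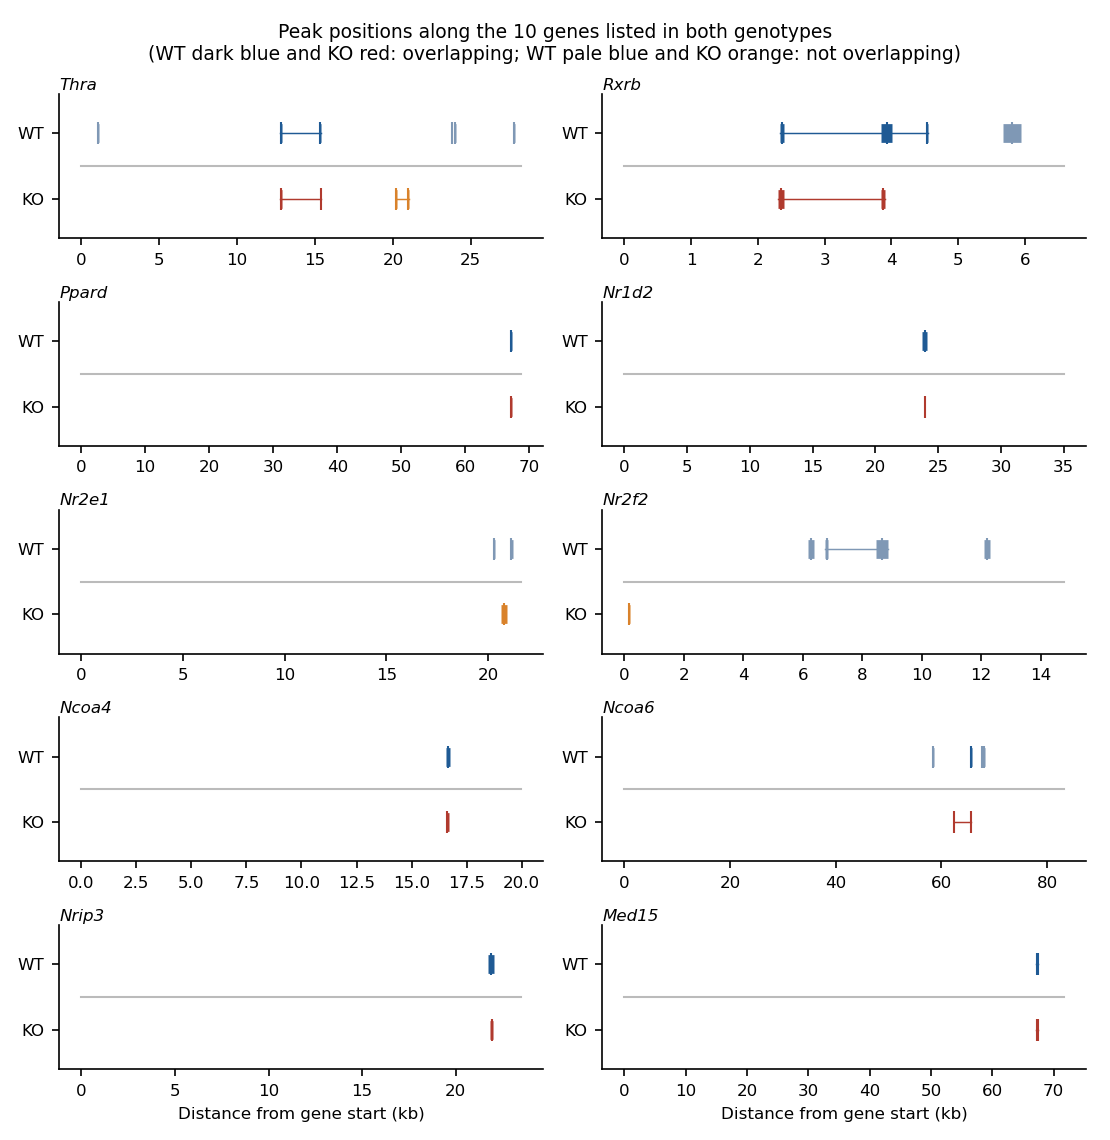
Position of each peak (kb from the gene start, to scale within a gene) for the 10 genes with a peak in both lists, with WT above and KO below the gene line; thin lines join the exonic blocks of 1 peak, and a tick marks each block's centre so that short blocks stay visible. Dark blue and red peaks overlap, while pale blue and orange ones do not: Nr2e1 and Nr2f2 hold no overlapping pair, and Thra holds 1 pair and 1 further KO peak.

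Steroid receptor and NR4A genes were listed in WT alone. Nr3c1, the glucocorticoid receptor gene, had WT peaks of 181, 510, 181 and 61 bases on chromosome 18, and Nr3c2, the mineralocorticoid receptor gene, had 61 and 211 bases on chromosome 8. Esrrg, which encodes an oestrogen-related receptor, had 1 of 91 bases. Esr1, Esr2, Esrra and Esrrb had no peak in either list. NR4A genes are immediate early genes of neuronal activity. Nr4a3 had 4 WT peaks over 423 bases, 3 of them 3941 to 6626 bases after the gene start, and Nr4a1 and Nr4a2 had 1 each, of 240 and 150 bases. The Nr4a2 peak was the strongest of the NR4A peaks (p-value 1e-119). None of these 13 peaks of steroid receptor and NR4A genes was overlapped, beside 12.9% of all WT peaks.

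Among lipid and xenobiotic sensors, Ppard was the only listed gene of 9. Its WT peak on chromosome 17 from 28299771 to 28300039 (269 bases, p-value 2e-20) and its KO peak from 28299861 to 28300039 (179 bases, p-value 5e-13) end at the same base, 1430 bases before the gene end. The KO peak covers 66.5% of the WT peak. Ppara, Pparg and both LXR genes (Nr1h2 and Nr1h3) had no peak in either list, nor had the 5 genes of the NR0, NR5 and NR6 families.

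All 3 p160 coactivator genes were listed in WT alone. Ncoa1 had 5 WT peaks of 330, 151, 300, 240 and 61 bases on chromosome 12, the strongest of them (4247900 to 4248229, p-value 1e-151) 538 bases from the gene end. Ncoa2 had 541, 91 and 90 bases on chromosome 1 between 13174123 and 13175202, the first with a p-value of 1e-183. Ncoa3 had 210 and 181 bases on chromosome 2. None of these 10 peaks was overlapped, but only 12.9% of all WT peaks were. Nrip1, which encodes the ligand-dependent corepressor RIP140, had all 7 of its WT peaks on chromosome 16 between 76291411 and 76294790, from 61 to 509 bases wide and with p-values from 1e-171 to 1.3e-29, and 0 KO peaks.

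Of the other NCOA and NRIP genes, Ncoa4, Ncoa6 and Nrip3 had 1 overlapped WT peak each. Ncoa4 also serves as the receptor for autophagy of ferritin, and its WT peak (chromosome 14, 32176434 to 32176614, 181 bases, p-value 4e-78) and KO peak (32176434 to 32176584, 151 bases, p-value 4e-16) start at the same base. Nrip3 had a WT peak of 300 bases (chromosome 7, 109759519 to 109759818) with a KO peak of 150 bases inside it (109759549 to 109759698, p-value 3.2e-22). Ncoa6, a subunit of histone H3 lysine 4 methyltransferase complexes, had 4 WT peaks on chromosome 2 of 270, 150, 150 and 180 bases. Its KO peak had blocks of 184 and 56 bases, from 155408267 to 155411580 (p-value 3.2e-68), and covered 60% of the third, the one from 155408207 to 155408356. The 2 strongest Ncoa6 peaks (p-values 1e-137 and 1e-120) were not overlapped. Ncoa5 had 3 WT peaks over 1012 exonic bases, of which 1 joined 3 blocks and began 92 bases after the gene start, and Ncoa7 had 1 of 449 bases. Neither had a KO peak.

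**Figure D3:**
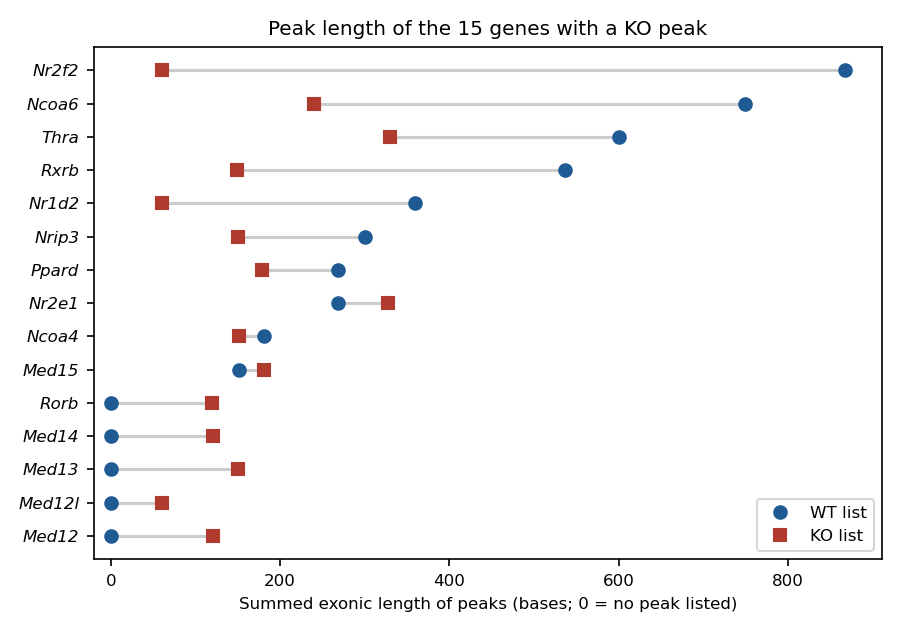
Summed exonic length of peaks in bases (horizontal axis) in the WT list (blue circles) and the KO list (red squares) for the 15 genes with a KO peak; 0 means that no peak was listed. Nr2f2 had 868 bases in WT and 61 in KO, Thra 601 and 330, and 5 genes had a KO peak and no WT peak.

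Mediator genes held 18 WT peaks, of which 1 was overlapped. The kinase module is a detachable part of Mediator, formed by MED12, MED13, cyclin C and CDK8 or their paralogs. Med12, Med12l and Med13 had 0 WT peaks and 1 KO peak each, while Med13l had 1 WT peak of 301 bases on chromosome 5 (118762889 to 118763189, p-value 1e-138) and 0 KO peaks. The KO peaks were of 121 bases in 2 blocks on chromosome X (Med12, p-value 3e-09), 61 bases on chromosome 3 (Med12l, p-value 4.4e-10) and 150 bases on chromosome 11 (Med13, p-value 7.6e-10). They rank at 84.8%, 77.5% and 80.8% of the KO list, so all lie among its weaker peaks, and the Med13 peak also lies within the span of the long noncoding RNA gene Brip1os. Med14, which encodes the central scaffold subunit, had a KO peak of 121 bases in 2 blocks on chromosome X (p-value 2e-10) and no WT peak. The genes with a KO peak alone were thus these 4 Mediator genes and Rorb.

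Of the 26 other Mediator genes, Med14 included, 10 had a WT peak and 1 of these an overlapped one. This was Med15, whose WT peak (chromosome 16, 17655544 to 17655800, blocks of 28 and 123 bases, p-value 2e-29) lay wholly inside the KO peak (17655514 to 17655800, blocks of 58 and 123 bases, p-value 6.3e-18). Med1, the subunit that contacts liganded nuclear receptors, had WT peaks of 91, 151 and 301 bases on chromosome 11 between 98154759 and 98155869. Med25 had 210, 121 and 300 bases on chromosome 7, and Med26 had 1013 and 61 on chromosome 8, the first being the widest peak of the group. Med9 and Med11 had 2 each, and Med4, Med7, Med18 and Med19 had 1 each. The Med19 peak starts at the gene start and lies within the span of Tmx2 on the opposite strand. None of these 16 peaks was overlapped, beside 12.9% of all WT peaks. Within 1000 bases of the gene end lay 3 of 18 midpoints of Mediator peaks (16.7%), beside 16.7% of receptor peaks, 7.41% of NCOA and NRIP peaks and 16.5% of all WT peaks. Within 5000 bases, which takes in the whole of a short gene such as Med11, these shares were 94.4%, 52.1%, 25.9% and 57.2%.

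The strength of a WT peak and its overlap with the KO list were set side by side. Of the 93 peaks, 16, 22, 19, 17 and 19 fell in the 5 classes of the WT list from strongest to weakest. In the strongest class 1 of 16 was overlapped (6.25%, interval 1.11 to 28.3), against 30.8% of all WT peaks of that class. In the following classes 4 of 22 (18.2%), 1 of 19 (5.26%), 2 of 17 (11.8%) and 0 of 19 were overlapped, against 13.9%, 9.48%, 6.41% and 3.52%. The 15 strongest-class peaks without overlap belong to Nr2f1, Nr2f2, Rxrb, Ncoa1, Ncoa2, Ncoa5, Ncoa6, Nrip1, Med13l and Med25. This difference was not tested, and the peaks of a gene share its transcript.

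By number of WT peaks, 5 of 16 genes with 1 peak had it overlapped (31.2%, all genes 10.5%), and 1 of 11 genes with 2 peaks had an overlapped one (9.09%, all genes 22.7%). For 3 peaks the count was 0 of 7 (all genes 33.8%) and for 4 or more 2 of 7 (28.6%, all genes 46%). Overlapped peaks measured 225 exonic bases in the median (range 150 to 360) and the other 85 measured 180 (range 60 to 1013). None of the 8 overlapped peaks had its midpoint within 1000 bases of the gene end, against 13 of the 85 others (15.3%), which is 14% of all 93, beside 16.5% of all WT peaks. Of all KO peaks, 16.7% lay within that distance. With only 8 overlapped peaks the count says little about position, and it was not tested.

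**Figure D4:**
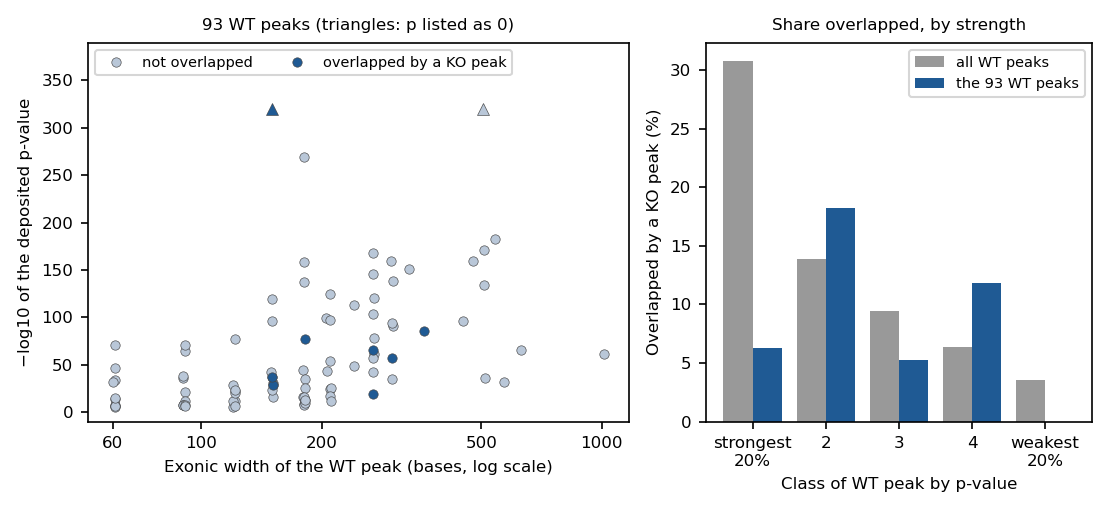
Left, exonic width (bases, log scale) against −log10 of the deposited p-value for the 93 WT peaks, with those overlapped by a KO peak in dark blue and 2 peaks with a p-value listed as 0 drawn as triangles above the scale. Right, share of WT peaks overlapped by a KO peak (%) in 5 classes of strength, for all WT peaks (grey) and the 93 (blue): 30.8% and 6.25% in the strongest class.

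Genes that work with these receptors were read from 9 lists set by known function, which share a few genes such as Klf9 and Per1. Of 20 corepressor genes, 15 had a WT peak and 5 an overlapped one (33.3%). Rere had 4 of 6 peaks overlapped, Ncor1, which encodes the NCoR corepressor, and Atn1 had 1 of 4 each and Gps2 1 of 1, while Hdac4 and Sin3b had 3 peaks each and Zbtb16 had 2, none overlapped. Zbtb16 also had 1 KO peak, over none of its WT peaks. Tbl1xr1, a subunit of NCoR complexes, had 2 KO peaks and 0 WT peaks. Of 28 further coactivator genes, 23 had a WT peak and 6 an overlapped one (26.1%). Smarca4, the ATPase of BAF remodelling complexes, had 3 of 4, the acetyltransferase genes Ep300 and Crebbp 1 of 4 each, Arid1a 1 of 5, Tacc1 1 of 3 and Paxip1 1 of 2. Kmt2d (15 WT peaks), Asxl1 (6) and Prdm2 (6) had none overlapped, and Kmt2d also had 1 KO peak elsewhere, of 211 bases. The share over all genes is 20.6%, as above, and none of these lists was tested.

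Among the kinase partners of Med12 and Med13, Cdk19 had 1 of 3 WT peaks overlapped, its paralog Cdk8 had 1 KO peak and 0 WT peaks, and Ccnc had a peak in neither list. Of the receptors outside the name rule, Pgr had 3 WT peaks and 0 KO peaks, and Hnf4a and Hnf4g had none.

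Ligand supply and target genes followed. Over all protein-coding genes 34.2% had a WT peak, and 20.6% of all genes with a WT peak had an overlapped one. In these lists the latter share was 20% for thyroid, 0% for retinoid, 33.3% for glucocorticoid, 16.7% for sterol and 44.4% for circadian genes. These shares were not tested. Of 14 genes of thyroid hormone supply and response, 10 had a WT peak and 2 an overlapped one: Dio2, the deiodinase that makes active hormone (1 of 3), and the hormone-responsive gene Nrgn (1 of 2). Klf9 had 3 WT peaks, and Mbp and Slc7a5 had 2 each, none overlapped. Retinoid supply had a WT peak in 2 of 16 genes, Cyp26b1 (2 peaks) and Rdh10 (1), none overlapped, and Aldh1a1 and Bco1 had KO peaks alone. Glucocorticoid handling had 9 of 18, with Fkbp5 (1 of 4), Hsp90ab1 (1 of 1) and Per1 (1 of 2) overlapped, and Klf9 (3 peaks), Zbtb16 and Ddit4 (2 each) not. Sterol genes had 12 of 15, with Apoe (1 of 1) and Hmgcs1 (1 of 2) overlapped, and Srebf2 (3 peaks), Scap (2) and Abca1 (1) not. Circadian partners had 9 of 17, with Per1 (1 of 2), Cry2 (1 of 2), Bhlhe40 (1 of 1) and Csnk1e (1 of 4) overlapped, and Csnk1d (3 peaks) and Dbp (2) not. Among the genes named here without overlap, Slc7a5, Zbtb16 and Srebf2 each had 1 KO peak elsewhere. The coactivator gene Trip12, the chaperone gene Fkbp4 and the clock gene Npas2 had KO peaks alone.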

How the data were processed

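Per the submitters' processing notes, reads were aligned with STAR to GRCm38, without versions. The authors deposited 1 consensus peak list per genotype, with a score per peak read as a p-value (or q-value, which is not stated) from its range, at most 0.00015. The sources used here name neither the peak caller nor how libraries were combined.

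Entries sharing exonic sequence were merged within a list (15091 WT entries to 15009 peaks, 3733 KO entries to 3673; none of the 46 genes was affected). A WT peak counted as overlapped if it shared 1 exonic base or more, strand included, with a KO peak. RefSeq gene spans (GRCm38.p6) hold no exons, so exon, intron and UTR are not given. Coordinates count from 1. Python 3.11.15, pandas 2.3.3 and statsmodels 0.14.6 were used, and overlaps were tested on simulated data. Members and lists were chosen with earlier results of these data known. Every member is named, with peak widths and positions by rule for genes with a KO peak or at least 3 WT peaks. Those of other members, the 5 sequences, and genes of the further lists with a KO peak alone were chosen after their values were seen. From those lists, genes with an overlapped peak are named, and up to 3 with most WT peaks and none overlapped. A few genes of these lists are not reported here.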

Additional observations from a re-analysis of the deposited data

How the results depend on the processing

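No paired analysis was possible because neither list holds libraries one by one, and leaving out a library was not run for the same reason. Over 10 alternatives the share of WT peaks overlapped ran from 5.26% to 9.33%. Over all WT peaks it ran from 6.26% (50% of both peaks shared) to 28.6% (shortened WT list, where the 46 genes had 5.26%). With 50% of the WT peak covered it was 6.45%, against 6.52% of all WT peaks. With the stronger 50% of each list it was 6.67%, against 14.1%. With 50% of both peaks shared, 5 genes had an overlapped peak, and with the stronger 50% of each list 3. With only as many WT peaks as KO peaks, strongest first, 1 gene had one. Over all genes with a WT peak, the shares at these settings were 10.9%, 19.3% and 34.3%. The 1 gene left was Thra, which was overlapped under each of 9 overlap and list settings. Rxrb and Nr1d2 were no longer overlapped once 50% of the WT peak had to be covered. With the shortened WT list, 6.25% of KO peaks lay over a WT peak, against 32.5% of all KO peaks. With the stronger 50% of each list it was 42.9%, against 61.9%. The member share was the higher one with 50% of the WT peak covered (37.5%, against 26.6%) and with 50% of both peaks shared (31.2%, against 25.6%). With the shortened WT list, 9 genes were listed in WT alone, 4 in both and 11 in KO alone. Over all genes, those in KO alone rose from 799 to 1641 at that setting. With the stronger 50% of each list, 4 were in both and 2 in KO alone, where 421 of all genes were in KO alone. Without the Med genes, 1 gene was in KO alone. WT peaks near the gene end made up 5.38% with a window of 500 bases and 52.7% with 5000. Sequences of overlapped peaks were planned and not run, because no genome sequence was used here.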
